A study of Arabidopsis thaliana with 2 samples.

Results

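The light-harvesting antenna genes of Arabidopsis thaliana described here are 10 nuclear loci, picked by locus name from the authors' table of polysome ratios, out of 25457 loci that a probe of the array named. They are LHCB1.3 (AT1G29930), LHCB2.1 (AT2G05100), LHCB2.2 (AT2G05070), LHCB2.3 (AT3G27690), LHCB3 (AT5G54270), LHCB4.1 (AT5G01530), LHCB5 (AT4G10340), LHCB6 (AT1G15820), LHCA1 (AT3G54890) and LHCA4 (AT3G47470). Each was read by 1 probe, printed once. The cells were T87, a suspension cell line grown in liquid medium under a daily light and dark cycle and transferred weekly to fresh medium. The labels name no genotype, transgene or treatment beyond that transfer. Cells taken on day 8 after transfer were compared with cells taken on day 1, with 1 array of 2 channels for each day and 1 biological replicate by the design text. Day and array therefore cannot be told apart, no test between days was possible, and every difference below describes these 2 arrays.

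Antenna proteins bind chlorophyll and carotenoids in the thylakoid membrane of the chloroplast and pass absorbed light energy to the photosystems. LHCB1, LHCB2 and LHCB3 make up the trimers of the major antenna of photosystem II, while LHCB4, LHCB5 and LHCB6 are the minor antenna proteins, which occur as monomers and link these trimers to the photosystem core. LHCA proteins form the antenna of photosystem I. The genes lie in the nucleus, so their mRNAs are read by cytosolic ribosomes before the proteins are imported into the chloroplast. An mRNA that carries many ribosomes sediments far in a sucrose gradient, and its share in the heavy polysomal fractions is used as a measure of how actively it is translated.

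The polysome ratio of a gene is the signal of RNA from the polysomal fractions (1 to 3 of 8) divided by that of RNA from the whole gradient, given here as a percent. The deposited values are log10 ratios. The denominator is total RNA by the design text and the labelling protocol, while the sentence on spike-in RNAs calls it nonpolysomal. Both arrays gave signal for 19664 loci. The middle locus lay at 24.2% on day 8 and at 36.0% on day 1, and the change of the median gene was -0.52 (log2). Ratios above 100%, impossible for a true share of total RNA, were found for 36 loci on day 8 and 74 on day 1. Features without signal did not read as 0 but took a fixed value, near 25.1% on day 8 and 53.8% on day 1. A feature without signal on both days would thus read more than 2-fold lower on day 8. How far weak signals were drawn toward these values, and so toward an apparent decrease, was not tested. Of 8 markers of a green, photosynthetic culture 7 had signal on both days, among them all 4 genes of the small Rubisco subunit on the list. The 5 markers chosen for xylem-like cells with secondary walls all had signal too. Among all loci on the array, 19664 of 25457 had signal on both days, so such counts set neither list apart. Signal here means only a ratio away from the value of features without signal. A ratio holds no expression level, so neither list says how abundant such cells were. A change in every cell and a change in the proportion of cells with loaded mRNA cannot be told apart in such extracts.

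The antenna genes lay on both sides of equality between the days. LHCB2.1, LHCB2.2 and LHCB1.3, all of the major photosystem II antenna, had higher polysome ratios on day 8 than on day 1. LHCB3, LHCB4.1, LHCB5, LHCB6, LHCA1 and LHCA4 had lower ones. The remaining gene, LHCB2.3, had no signal on day 1 and has no change. Over the 9 genes with signal on both days the ratios ran from 7.08% to 206% on day 8, a span of 4.86 on the log2 scale, and from 29.5% to 46.6% on day 1, a span of 0.66. Their medians were 12.1% on day 8 and 35.3% on day 1.

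**Figure D1:**
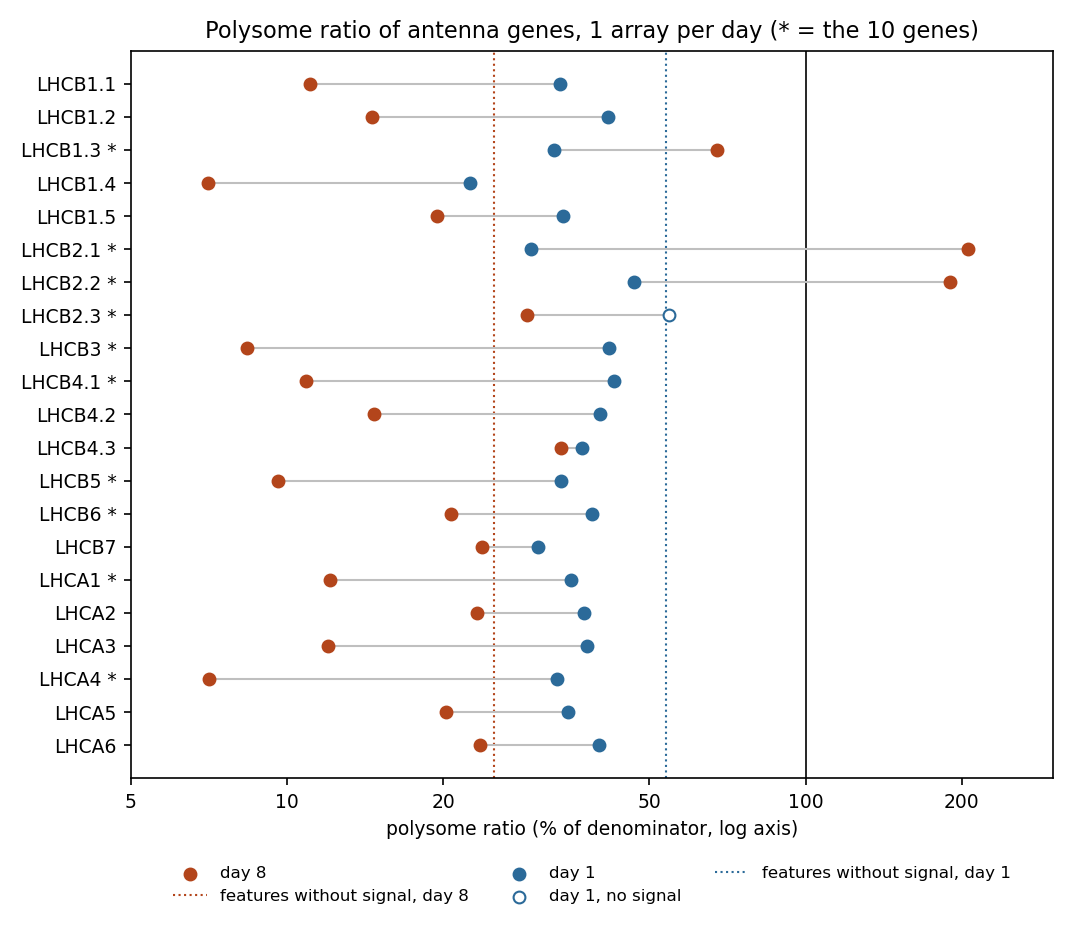
Polysome ratio in percent (log axis) of 21 antenna genes on day 8 (red) and day 1 (blue), 1 array each; an asterisk marks the 10 genes described, the open point a value without signal, dotted lines the median value of features without signal, and the black line 100%. Among the 20 genes with signal on both days, day 1 points lie close together between 22.5% and 46.6%, while day 8 points spread from 7.05% to 206%, with LHCB2.1, LHCB2.2 and LHCB1.3 right of their day 1 points.

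Of these 9 genes, 3 were higher on day 8 as deposited, where 18.5% of all loci were, and 6 were lower, where 81.3% were. Relative to the median gene, whose own change is subtracted, 3 lay above it, where 49.9% of all loci did, and 6 below it, where again 49.9% did. With a threshold of 2-fold, 3 were at least 2-fold higher (1.22% of all loci) and 5 at least 2-fold lower (25.6% of all loci). The share of 25.6% may include loci without signal that were not left out, since these read lower on day 8. The 5 lower genes lay 1.07 (LHCA1) to 1.82 (LHCA4) below the value of features without signal on day 8. On day 1 they lay 0.34 (LHCB3 and LHCB4.1) to 0.68 (LHCB5) below it, all on the log2 scale. Relative to the median gene the counts past 2-fold were the same: 3 at least 2-fold higher (4.44% of all loci) and 5 at least 2-fold lower (10.8%). The median change of the 9 was -1.54 as deposited and -1.02 relative to the median gene. Error within an array can be gauged in 2 ways. The median SD of repeated spots of 23 probes was 0.03 on the log2 scale on either day. Different probes of the same gene differed more. Their median SD over 546 loci was 0.29 in the change, 0.33 in the day 8 ratio and 0.14 in the day 1 ratio. Between the 2 arrays, the changes of 10 spike-in probes ran from -0.55 to 0.61, with a median of -0.29. Smaller changes given below, such as the 0.08 of STN7, lie inside that range. None of these measures covers the spread between cultures.

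LHCB2 is a part of the major antenna that, like LHCB1, is phosphorylated, and the antenna can move between the photosystems. It is encoded by 3 genes. LHCB2.1 had a ratio of 206% on day 8, against 29.5% on day 1. The change was 2.80 on the log2 scale, a 6.98-fold higher ratio, and 3.33 relative to the median gene. Only 1 locus had a higher ratio on day 8, and 4 of the 19664 loci had a larger increase. On day 1 its ratio was below that of most genes, at percentile 16.6 of all loci.

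LHCB2.2 had 190% on day 8, against 46.6% on day 1. Its change was 2.03 on the log2 scale (4.07-fold), with 30 loci above it, and 2.55 relative to the median gene. On day 8 both LHCB2 genes thus lay beyond 100%, where 0.183% of all loci did (0.376% on day 1), and they differed by 0.12, less than the SD between probes of a gene. On day 1 they differed by 0.66, with LHCB2.1 the lower. The change of LHCB2.1 exceeded that of LHCB2.2 by 0.78, and 169 of the 546 loci with several probes had probes that disagreed by at least that much.

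If the denominator was the nonpolysomal pool, the share of all mRNA in polysomes would be 67.3% on day 8 and 22.8% on day 1 for LHCB2.1, and 65.5% and 31.8% for LHCB2.2, so values above 100% on the deposited scale would be possible. These shares, a measure added after the data had been seen, give LHCB2.1 a 2.95-fold higher value on day 8 and LHCB2.2 a 2.06-fold higher one, both smaller than the folds of the ratios. The day 1 value of LHCB2.2 lay 0.19 below the value of features without signal at its position (53.0%) on the log2 scale, the smallest such distance among the genes with signal on day 1, whereas its day 8 value lay 2.91 above. LHCB2.3 had 29.0% on day 8, which was 0.21 above the value of features without signal. Its day 1 reading of 54.5% equalled that value at its position, so it was not taken as a measured ratio. Whether LHCB2.3 followed the other LHCB2 genes could not be seen.

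LHCB1 is the most abundant antenna protein, and the LHCB1.3 transcript had a ratio of 67.6% on day 8, against 32.7% on day 1. Its change was 1.05 on the log2 scale (2.07-fold) and 1.57 relative to the median gene, and 218 loci had a larger increase. With the nonpolysomal pool as denominator its share would be 40.3% on day 8 and 24.6% on day 1, which is 1.64-fold and no longer past 2-fold as deposited (1.11 on the log2 scale relative to the median gene). The other 4 LHCB1 genes had lower ratios on day 8. LHCB1.1 had 11.1% on day 8 and 33.6% on day 1, and LHCB1.2 had 14.6% and 41.5% on those days. LHCB1.4 had 7.05% on day 8 and 22.5% on day 1, the lowest antenna gene on day 1 and level with LHCA4 on day 8, and LHCB1.5 had 19.5% and 34.1%.

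On day 1 LHCB1.3 and LHCB1.1 were alike, 0.04 apart on the log2 scale. On day 8 LHCB1.3 was 6.11-fold higher than LHCB1.1, 4.63-fold higher than LHCB1.2, 9.59-fold higher than LHCB1.4 and 3.47-fold higher than LHCB1.5. The change of LHCB1.3 exceeded that of LHCB1.1 by 2.65, a disagreement that 8 of 546 loci (1.47%) showed between their own probes. Against LHCB1.5 the excess was 1.86, which 25 of the 546 loci (4.58%) matched. In the RefSeq annotation (assembly TAIR10.1) LHCB1.2, LHCB1.1 and LHCB1.3 follow one another with no locus between them, so the gene with the higher ratio and 2 of those with lower ratios are neighbours. LHCB2.2 and LHCB2.1, both higher on day 8, have 5 annotated loci between them, none of them protein-coding.

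Genes of these families are near-identical in sequence. The file names 1 locus for each of these probes, but how far a probe also binds transcripts of a sister gene was not tested, so values within LHCB1 and within LHCB2 are uncertain as to the gene. LHCB1.3 also overlaps the annotated span of the next locus, NRPA2 (AT1G29940), a subunit of RNA polymerase I, by 108 bases. The probe of NRPA2 read 31.6% on both days, a change of 0.00.

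**Figure D2:**
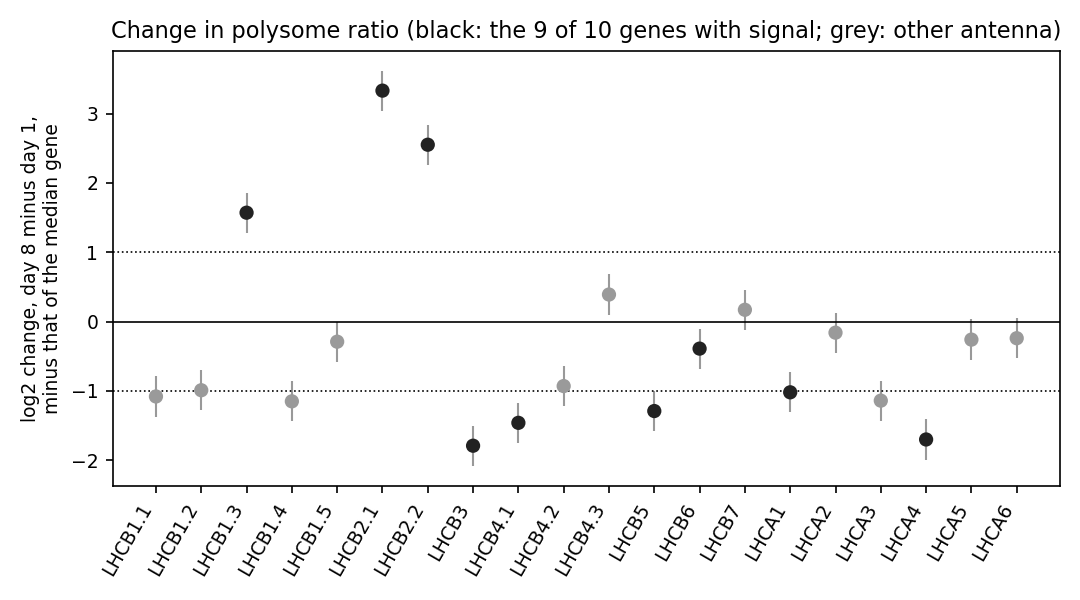
Log2 change in polysome ratio, day 8 minus day 1, less that of the median gene, for the 20 antenna genes with signal on both days; bars are ± 0.29, the median SD of the change between different probes of a gene, and dotted lines mark 2-fold. LHCB2.1 (3.33), LHCB2.2 (2.55) and LHCB1.3 (1.57) stand above the upper line, and the lowest are LHCB3 (-1.79) and LHCA4 (-1.70).

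LHCB3, the remaining subunit of the major trimers, had the lowest change of all antenna genes. Its ratio was 8.39% on day 8, against 41.8% on day 1. The log2 change was -2.32, or -1.79 after subtracting the median gene, with 381 loci lower. On day 1 it stood high among all loci, at percentile 83.7, and on day 8 low, at percentile 4.49. LHCB2.1 and LHCB3 had the highest and the lowest change of the antenna genes, so the gap of 5.12 between them is the widest by choice. The largest disagreement between probes of any of the 546 loci was 3.39. A range over many genes is not like one within a locus, so the 2 values are not a test. LHCB2.2 and LHCB3 were 0.16 apart on day 1, and on day 8 LHCB2.2 was 22.6-fold higher.

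The polysome ratios of the minor antenna genes were lower on day 8 by unequal amounts. LHCB4.1 (CP29) had 10.9% on day 8, against 42.8% on day 1, which gives a log2 change of -1.98. LHCB5 (CP26) followed with 9.59% on day 8, against 33.7% on day 1 (-1.81). LHCB6 (CP24) had 20.7% on day 8 and 38.8% on day 1. Its change of -0.91, or -0.39 relative to the median gene, was the smallest of the 6 decreases and the only one short of 2-fold. The day 8 value of LHCB6 also lay 0.31 from the value of features without signal, nearer than those of LHCB4.1 (1.23) and LHCB5 (1.44).

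LHCB4 has 2 further genes. LHCB4.2 had 14.7% on day 8 and 40.1% on day 1 (change -1.45), 0.52 above LHCB4.1, a difference that the probes of 233 of 546 loci (42.7%) reached. LHCB4.3, a divergent gene of the family, had 33.8% on day 8 and 37.0% on day 1. Its change of -0.13 was 0.39 above that of the median gene. Its change exceeded that of LHCB4.1 by 1.85, as large as or smaller than the probe disagreement of 25 of 546 loci. LHCB7, a rarely expressed relative, had 23.8% on day 8 and 30.5% on day 1 (change -0.36).

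In the antenna of photosystem I, LHCA1 and LHCA4 pair as a dimer. LHCA4 had 7.08% on day 8, against 33.1% on day 1, and its log2 change was -2.23 as deposited and -1.70 relative to the median gene. LHCA1 had 12.1% on day 8, against 35.3% on day 1. Its change was -1.54 as deposited and -1.02 relative to the median gene, just past 2-fold. This call was lost with all features kept and with the share of all mRNA as measure, at -0.87 relative to the median gene in both. The partners were 0.09 apart on day 1 and 0.78 on day 8, with LHCA4 the lower, and 191 of the 546 loci had probes that disagreed in their change by at least the 0.68 between them. Their ratios on day 8 were at percentiles 2.69 (LHCA4) and 12.1 (LHCA1) of all loci.

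Of the other photosystem I antenna genes, LHCA3 had 12.0% on day 8 and 37.9% on day 1 (change -1.66). LHCA2, the partner of LHCA3, had 23.3% and 37.4% on those days (-0.68). LHCA5 and LHCA6, which help attach the NDH complex to photosystem I, had changes of -0.78 (LHCA5) and -0.76 (LHCA6). All 6 LHCA genes were lower on day 8, where 81.3% of all loci were, and 3 of them were at least 2-fold lower, where 25.6% were. The day 8 values of LHCA2, LHCA5, LHCA6 and LHCB7 lay within 0.30 of the value of features without signal, so a weak signal cannot be told apart from a ratio near that value.

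In the order of the changes, 5 gaps between neighbours exceeded the probe SD of 0.29. LHCB2.1 was 0.78 above LHCB2.2, LHCB2.2 was 0.98 above LHCB1.3, and LHCB1.3 was 1.18 above the next gene, LHCB4.3. The other two were the 0.33 between LHCB7 and LHCA2 and the 0.54 between LHCB6 and LHCB4.2. A gap past the SD does not by itself set genes apart, as the count of loci for LHCB2.1 and LHCB2.2 above shows. From LHCB4.2 (-1.45) down to LHCB3 (-2.32), which takes in 10 antenna genes, no gap between neighbours exceeded 0.25. On day 8 alone LHCB1.3 was 1.49 below LHCB2.2 and 1.00 above LHCB4.3, and from LHCB4.2 down to LHCB1.4 no gap between neighbours exceeded 0.27. On day 1 the only gap larger than the day 1 probe SD of 0.14 was the 0.39 between LHCB2.1 and LHCB1.4.

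**Figure D3:**
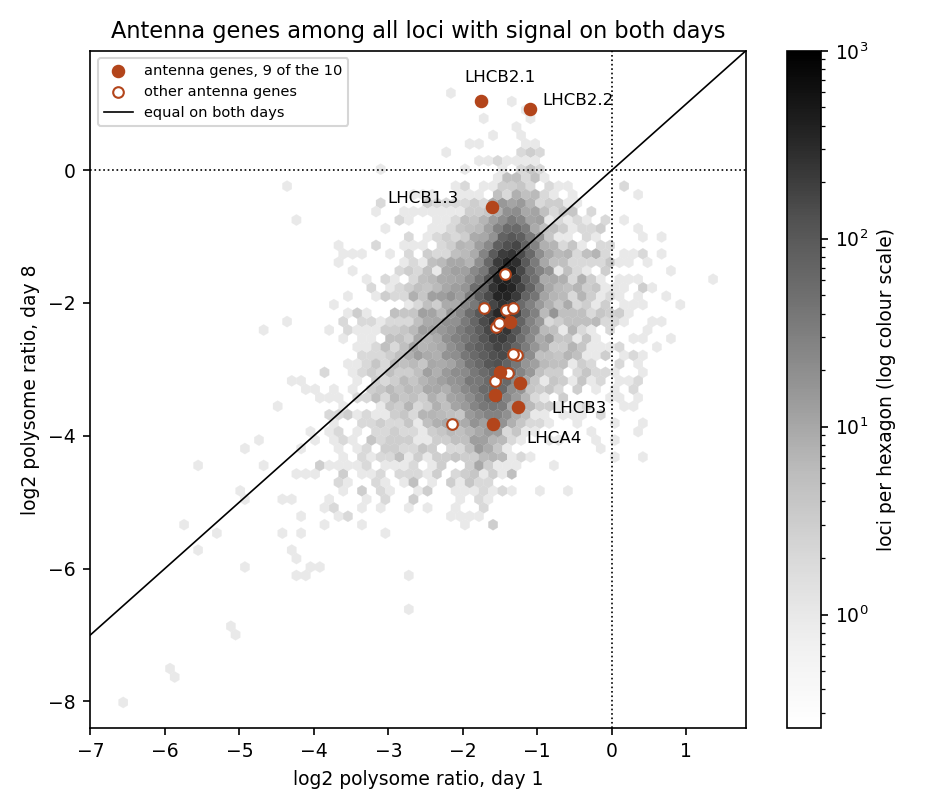
Log2 polysome ratio on day 8 (vertical) against day 1 (horizontal) for 19664 loci, shaded by number per hexagon, with the antenna genes as points; the solid line marks equal ratios and dotted lines 100%. LHCB2.1 and LHCB2.2 lie above 100% on day 8 at the upper edge of all loci, while LHCB3 and LHCA4 lie in the lower part of the main cloud.

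The 21 loci named LHCB or LHCA here, all of which had a probe, give a fuller count than the 10 genes. A further locus of the family, given at the end, was not counted among them. Of the 20 with signal on both days 3 were higher and 17 lower on day 8, the second close to the 81.3% of all loci that were lower. A ratio at least 2-fold lower was read for 10 (25.6% of all loci), and the 3 at least 2-fold higher (1.22% of all loci) were LHCB2.1, LHCB2.2 and LHCB1.3. The median change of the 20 was -1.18, or -0.66 relative to the median gene. The 11 loci outside the 10 genes were all lower, with a median of -0.29 relative to the median gene. Of them 3 lay below it by 2-fold or more, where 10.8% of all loci did.

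Genes for proteins related to the antenna but without its main function lay nearer to the median gene. Of 9 such light-harvesting-like genes 4 lay above it and 5 below, with a median of -0.02. The lowest was LIL3:2, which helps supply phytol for chlorophyll, with 6.95% on day 8 and 34.7% on day 1 (change -2.32). OHP2, a one-helix protein needed for assembly of photosystem reaction centres, was highest with 31.6% and 35.9% on those days, and SEP2, a stress-enhanced protein, lay nearest the median with 21.5% and 31.3%. PSBS, the sensor of photoprotective quenching, had 13.4% on day 8 and 34.4% on day 1.

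Changes of the nuclear genes for subunits of the photosystems themselves covered a narrower range than those of the antenna genes. All 13 photosystem I subunits had signal, 10 of them below the median gene, with a median of -0.15 relative to it and changes as deposited from -1.52 for PSAE2 (13.2% on day 8, 37.9% on day 1) to -0.06 for PSAD1 (36.2% on day 8, 37.8% on day 1). PSAP lay nearest the median of this list with 22.6% and 36.1% on those days. Of 10 photosystem II subunits 8 had signal on both days, 7 of them below the median gene, also with a median of -0.15. As deposited they ranged from -1.40 for PSBQ2, of the oxygen-evolving complex (15.0% on day 8, 39.5% on day 1), to -0.34 for PSBX (24.5% on day 8, 31.0% on day 1), and PSBP1 lay nearest their median with 21.0% and 33.8%. None of the 21 subunits was higher on day 8 as deposited, where 18.5% of all loci were. On day 8 PSBX (-0.03), PSAP (-0.19) and PSBP1 (-0.21) lay close to the value of features without signal on the log2 scale. PSAD1 (0.54), PSBQ2 (-0.75) and PSAE2 (-0.93) lay farther from it. Near that value a weak signal cannot be told apart from a true ratio, so the narrower range is uncertain.

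Of 5 genes that deliver antenna proteins to the thylakoid 4 lay below the median gene. ALB3, the insertase of the membrane, was lowest with 12.6% on day 8 and 41.4% on day 1 (change -1.72). CPSRP54, a subunit of the chloroplast signal recognition particle, had 24.5% and 38.9%, and its receptor CPFTSY was highest with 28.6% and 34.6%. The median of these 5 was -0.15 relative to the median gene.

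Genes for enzymes that set the distribution and quenching of absorbed light lay at a median of -0.28, with 3 of 5 below the median gene. STN7, the kinase that phosphorylates LHCB1 and LHCB2, was higher on day 8 by 0.08, with 36.8% on day 8 and 34.8% on day 1. TAP38, the phosphatase that reverses this step, was lower, with 10.8% on day 8 and 29.5% on day 1 (change -1.45). STN8, a kinase of the photosystem II core, lay nearest the median with 17.1% and 29.9%.

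Chlorophyll synthesis genes lay at the median gene (0.00), with 6 of 12 above and 6 below. CHLH, the large subunit of magnesium chelatase, was the only one higher on day 8, with 42.8%, against 38.2% on day 1. CHLM, the methyltransferase of the pathway, was lowest with 11.6% on day 8 and 33.6% on day 1, and the protochlorophyllide reductase PORC lay nearest the median with 27.5% and 41.2%. A further gene, PORA, had no signal on day 1.

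Chlorophyll breakdown genes lay highest of these lists, at a median of 0.39 relative to the median gene, with 4 of 6 above it and none past 2-fold in either direction. The pheophytinase PPH had 34.6% on day 8 and 34.7% on day 1. SGR1, which extracts magnesium from chlorophyll and targets antenna complexes for degradation, had 28.5% and 33.1%, and HCAR, a reductase that converts chlorophyll b derivatives, was lowest with 24.2% and 38.5%. Of 4 regulators of antenna genes 3 had signal on both days: GUN1, a plastid signalling protein, had 39.4% on day 8 and 42.0% on day 1, GLK2, an activator of antenna genes, had 22.3% and 32.9%, and the light-response factor HY5 had 13.4% and 32.9%. In the lists other than antenna and photosystem genes, CPSRP54 (-0.02), HCAR (-0.04), PORC (0.12) and CPFTSY (0.15) also lay close to the day 8 value of features without signal. GLK2 (-0.17), SGR1 (0.20) and SEP2 (-0.21) did too. Of the other genes named from these lists with signal on both days, OHP2 (0.34) lay nearest to it. The medians of these lists carry the same limit.

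**Figure D4:**
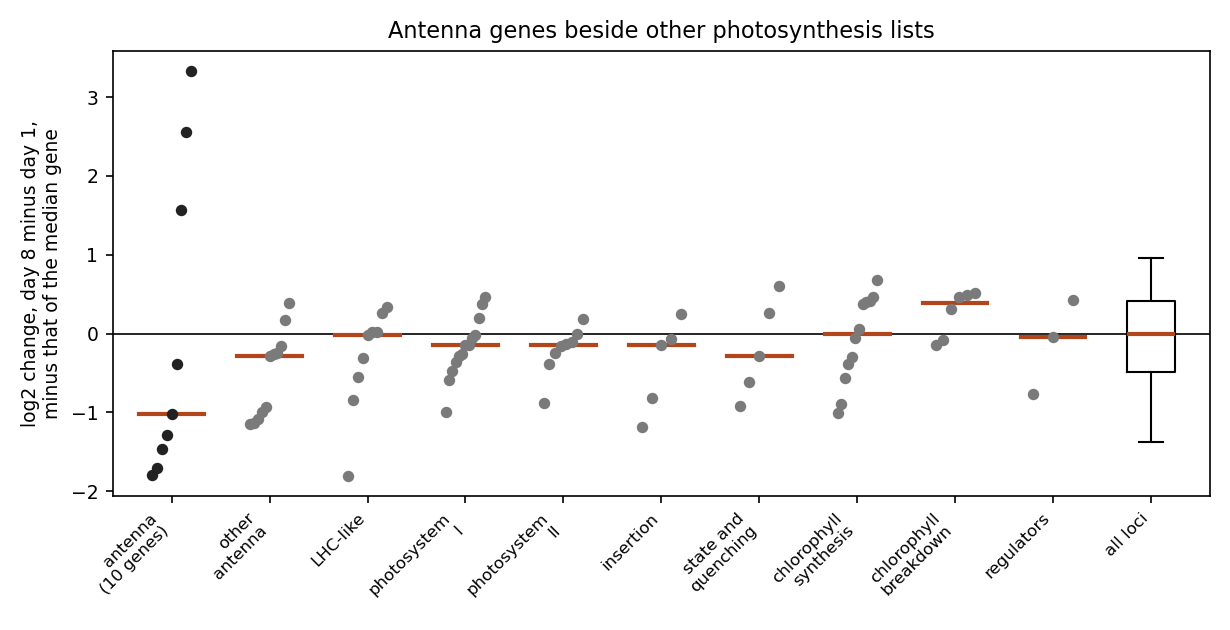
Log2 change in polysome ratio, day 8 minus day 1, less that of the median gene, for the antenna genes and 9 related lists; points are genes, red lines list medians, and the box for all 19664 loci shows quartiles with whiskers at percentiles 5 and 95. The antenna genes lie on both sides of the box, between -1.79 and 3.33, and the chlorophyll breakdown list has the highest median (0.39).

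The loci most like each antenna gene were found by the Euclidean distance of both log2 ratios among 8331 other loci with a symbol; with 2 values per locus, this likeness is coarse. LHCB2.1 had few loci near it: XW6 at 0.24 (175% on day 8, 30.6% on day 1), SVL2 at 0.44 (228% and 22.1%) and emb1507 at 0.65 (153% and 41.3%). The loci closest to LHCB2.2 were emb1507 at 0.35, FLA8 at 0.45 and RPL5B at 0.51. LHCB1.3 lay among many others, with MEE5 at 0.03, DEK1 at 0.04 and UGT71C2 at 0.06. The genes with lower ratios were in crowded places too. LHCB3 had NdhO, CYP81G1 and MYB89 each at 0.07, LHCB4.1 had FAH1 at 0.03, FLA3 at 0.04 and MYB12 at 0.05, and LHCB5 had PDF2 at 0.01, with WLIM2a and VAP27-1 at 0.02. LHCA4 had PDF1A and DEL3 at 0.03 and BSH at 0.04, and LHCA1 had FAD5 and NCBP at 0.00 and TFIIS at 0.01. None of the 3 loci closest to any of these genes was another antenna gene, which carries little weight among 8331 loci.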

How the data were processed

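The authors deposited log10 polysome ratios for 39102 features on each of 2 arrays, and the series matrix held identical values (largest difference 0). Per the labels' protocols, polysomal and total RNA were amplified with an oligo(dT) primer and labelled with Cy5 or Cy3. Scanner software, background and dye correction are not given in the sources used here. The log base was read from 10 spike-in probes, whose day 1 medians reached 0.925 and -0.838. The polysomal pool was taken as numerator from the column names. The 5 snoRNA loci, whose RNAs are not translated, had low ratios (4.68% on day 8 and 3.29% on day 1).

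The value of features without signal was estimated from the 30 nearest features within 0.04 (log10) of the median of 757 negative-control features. Features within 0.006 of it were left out, 26.8% of gene features on day 8 and 25.5% on day 1. This rule used the ratio and no intensity, so expressed genes whose ratio fell at that value were left out too. Row and column on the array were inferred from feature numbers. This took 95.9% of the negative controls on day 8 and 93.9% on day 1, so some features without signal passed. The filter was also run on simulated data, with features without signal planted close to a smooth surface. Features with signal were drawn from those that had passed the filter. The simulation therefore cannot show how many expressed genes were lost or how weak signals behave. Ratios were converted to log2, and spots and probes of a locus were averaged. Probes were named by locus (25920), by RefSeq accession (253) or by the main gene of a conserved upstream reading frame (54). Those naming several loci (202) or none (11049) were left out. No column of sample values was left unused (0). Python 3.11.15, numpy 2.4.6, pandas 2.3.3 and scipy 1.17.1 were used.

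The members and lists were chosen with earlier results of these data known. Named genes were all 10 members, the other antenna loci, in each list the lowest, the highest and the one nearest its median, and the 3 loci nearest each member past 2-fold. PSBS, PORA and the neighbour NRPA2 were named after their values had been seen. Alternatives were another 0, all features kept, a wider tolerance, other sets of genes, the other denominator and a local 0.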

Additional observations from a re-analysis of the deposited data

How the results depend on the processing

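No paired analysis was possible because each day has 1 array. The direction of each of the 9 antenna genes was the same under every alternative run for it: 0 at the median spike-in change (-0.29), all features kept, a wider tolerance of 0.012, the value table of the series, and, added after the data had been seen, 0 at the median of the 200 nearest features. Each member has 1 probe printed once, so the filter settings and the identical value table could not alter its change as deposited. The spike-in 0 and the local 0 only shift the point from which changes are counted. This sameness is therefore a weak check. Under that local 0, LHCB2.1 lay at 3.25, LHCB2.2 at 2.44, LHCB1.3 at 1.56 and LHCB3 at -1.87. The median change moved to -1.23 as deposited and -0.56 relative to the median gene with all features kept, which adds LHCB2.3 and moves the median gene to -0.67, and the count at least 2-fold lower relative to it was 4 in place of 5, without LHCA1. With all other antenna loci it was -1.18 and -0.66. Without LHCB2.1 and LHCB2.2, the genes above 100%, the count at least 2-fold higher was 1 by either measure. With the wider tolerance, which tests fewer loci (19147), the list that delivers antenna proteins moved to -0.97 as deposited and -0.45 relative to the median gene. With the highest or the lowest probe of each locus the median change relative to the median gene was -1.03 or -1.01, and that as deposited stayed at -1.54, since each member has 1 probe. With the nonpolysomal pool as denominator, 12 of the 18 ratios moved by more than the probe SD. The change of the resulting share was added after the data had been seen. The share rises with the ratio, so its direction as deposited was fixed in advance and tests nothing. Relative to the median gene each direction was also the same. By the share 2 genes were at least 2-fold higher and 5 lower as deposited (0.498% and 17.7% of all loci), and 3 higher and 4 lower relative to the median gene (1.83% and 7.72%). Signal over background of single channels was not analysed here, which limits what can be said of genes near the value of features without signal.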

Other observations

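A further locus, AT5G28450, is described in the file as a member of the chlorophyll A-B binding family and was in no list. Its probe read 15.1% on day 8, against 54.2% on day 1 (log2 change -1.85), and the day 1 value is close to that of features without signal. It was chosen after its values had been seen.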
